A study of Mus musculus with 6 samples.

Results

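Wnt ligands, their Frizzled receptors and the secreted antagonists of both were followed in RNA from mouse T cells that had shared a culture with ID8 ovarian cancer cells. The genes were chosen by name, as the protein-coding rows called Wnt, Fzd, Sfrp or Dkk with a number, together with Frzb, Wif1, Lrp5 and Lrp6. This gave 41 of the 54532 genes in the deposited table, made up of 19 ligands, 10 Frizzled receptors, 2 co-receptors, 5 members of the Sfrp family (Frzb among them), 4 members of the Dkk family and Wif1. The rule used no measured value. ID8 is a mouse ovarian surface epithelial line that is grown as a model of ovarian cancer. In the cisplatin group (3 libraries) the ID8 cells had received cisplatin, given as 40 µM in the labels, before they met the T cells, and in the control group (3 libraries) phosphate-buffered saline. Both groups shared the rest of the procedure. The T cells were splenic, from C57BL/6 mice aged 6 to 8 weeks, enriched with a pan T-cell kit, grown with IL-2 at 10 ng/mL and activated beforehand on anti-CD3/CD28 beads. After the co-culture the T cells were collected, and polyadenylated RNA was sequenced in bulk. The labels do not say whether the 3 libraries of a group came from separate mice or cultures, so the p-values measure only the spread between these libraries, which may be technical.

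Wnt proteins are secreted lipid-modified signals. They bind a Frizzled receptor on the receiving cell, and with Lrp5 or Lrp6 as co-receptor they keep beta-catenin from being degraded, so that it enters the nucleus and works with Tcf and Lef factors on target genes. Other Wnt proteins act through Frizzled without beta-catenin, on cell polarity and movement. Sfrp proteins and Wif1 bind Wnt proteins outside the cell, whereas Dkk proteins bind Lrp5 and Lrp6. Ovarian surface epithelium and the mesothelium next to it are known to use Wnt signals, and T cells are known for their high Tcf7 and Lef1.

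The values are FPKM, which are fragments scaled by gene length and by library size, so levels can be set side by side between genes. Depth was alike in both groups, with 30847321 to 32169496 reads on genes in cisplatin and 30606569 to 31255205 in control, as rebuilt from the FPKM. The library size used in the FPKM was 1.03 to 1.05 times the reads on genes in cisplatin and 0.976 to 0.982 times in control. Cisplatin FPKM are therefore slightly lower, relative to control, than scaling by reads on genes would make them. Because the RNA came from a bulk culture, the libraries were checked for RNA of other cells. All 20 T-cell markers tested were higher in the cisplatin group, with a median log2 fold change of 0.58, and their summed level was 2594 to 2670 FPKM in the cisplatin libraries and 1639 to 1760 FPKM in the control libraries. Of 22 markers of ID8 tumour or mesothelial cells, 17 were tested and 16 fell (Thbs1 did not pass), with a median log2 fold change of -2.34. Their summed level was 1725 to 1802 FPKM in the control libraries and 270 to 279 FPKM in the cisplatin libraries. Krt19, an epithelial keratin, was at 646 ± 18.1 FPKM in control and 52.9 ± 1.46 FPKM in cisplatin (SD, n = 3 each). Keratin RNA was therefore present in libraries labelled as T cells, at higher FPKM in the control group. B-cell RNA was present too. The 10 B-cell markers summed to 1690 to 1778 FPKM in control and 3619 to 3695 FPKM in cisplatin, and Ighm, the heavy chain of IgM, was at 1433 and 3220 FPKM in the group means, beside 288 and 487 FPKM for the T-cell receptor gene Trbc2. Fewer cells of a type and less RNA per cell cannot be told apart in these bulk samples, and the part of the ID8 and B-cell RNA in each Wnt result below was not tested.

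Of the 41 genes, 17 had a mean of at least 0.5 FPKM and were tested with limma on log2(FPKM + 0.1), 19 had fewer reads, and 5 had 0 reads in every library. A gene was called when its Benjamini-Hochberg adjusted p-value over all 15874 tested genes was under 0.05 and its log2 fold change at least 1 in size. Called lower in the cisplatin group were 13 of the 17, 6 ligands, 5 Frizzled receptors, Lrp5 and Sfrp4, and called higher were 0. The same rule called 12.8% of all tested genes lower and 4.11% higher, and 14.8% of tested protein-coding genes lower and 2.03% higher. The median log2 fold change of the 17 was -1.93, beside 0.03 over all tested genes. Wnt5a, Wnt7b, Fzd2, Fzd4 and Sfrp4 were under 0.5 FPKM in the cisplatin mean, and so they entered the test through the control group. Among the other 12, 8 were called lower, and the share among all genes with both group means over the filter was not counted. With a pseudocount of 1 in place of 0.1, which shrinks low values, the count over the 17 was 8, beside 1451 of all 15874 tested genes. In limma 0 of the 17 had a log2 fold change above 0, while voom on the rebuilt reads, which tested 27 of the 41, called 2 higher (Fzd10 and Sfrp2). Over all genes voom called 2423 lower and 1127 higher, but the number of genes it tested was not counted, so these give no share. In 15 of the 17 all 3 cisplatin libraries lay below all 3 control libraries, which held for 32.3% of all tested genes, and in 0 they all lay above, which held for 31.9%.

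**Figure D1:**
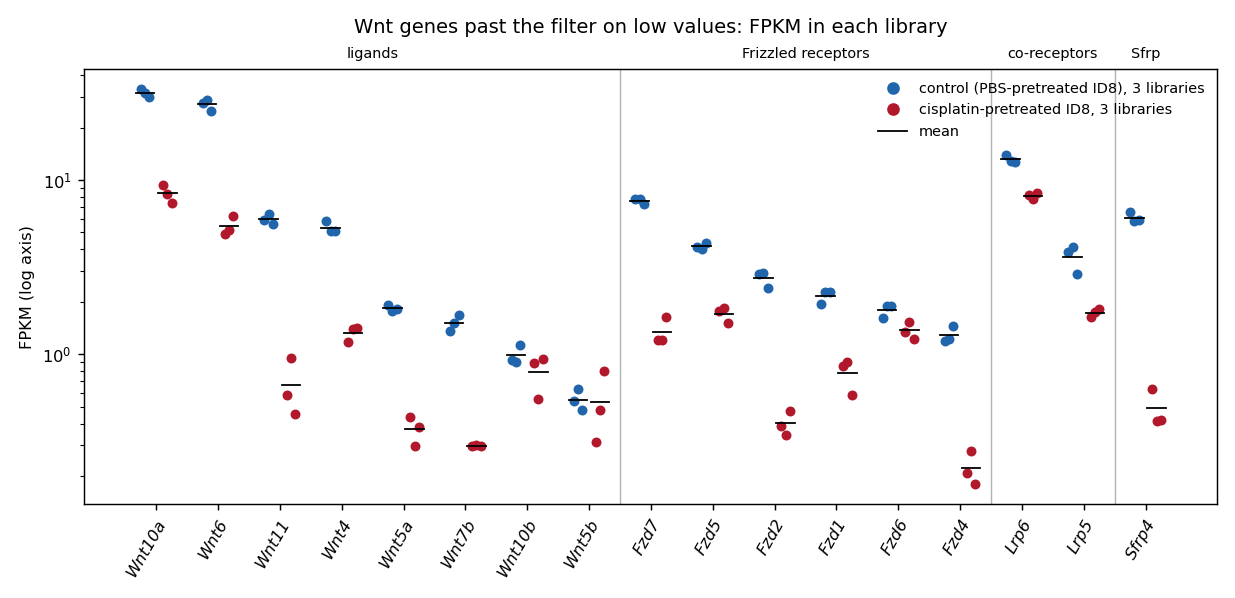
FPKM of the 17 tested genes in each of the 6 libraries on a log axis, by role (ligands, Frizzled receptors, co-receptors, Sfrp). Points are libraries and lines are group means. The cisplatin points lie below the control points for every gene shown except Wnt10b and Wnt5b, whose groups overlap.

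The sequence before a RefSeq transcript start is shown for 5 genes, to place it beside the values. Wnt6, Wnt11 and Fzd7 were called lower, and Fzd10 and Sfrp2 were the 2 genes of the 41 whose cisplatin libraries all lay above the control libraries. Each line is the 250 bases before a RefSeq transcript start on the plus strand of GRCm38.p6, at chr1:74771642-74771891 for Wnt6, chr7:98834862-98835111 for Wnt11, chr1:59481897-59482146 for Fzd7, chr5:128600856-128601105 for Fzd10 and chr3:83766071-83766320 for Sfrp2. Capitals mark 4 short motifs on either strand, which are CTTTGA (the core bound by Tcf and Lef factors, read as TCAAAG on the other strand), GGGCGG (bound by Sp1, CCGCCC on the other strand), TATAAA (the TATA box, TTTATA on the other strand) and GGAATG (bound by Tead factors, CATTCC on the other strand).
Wnt6: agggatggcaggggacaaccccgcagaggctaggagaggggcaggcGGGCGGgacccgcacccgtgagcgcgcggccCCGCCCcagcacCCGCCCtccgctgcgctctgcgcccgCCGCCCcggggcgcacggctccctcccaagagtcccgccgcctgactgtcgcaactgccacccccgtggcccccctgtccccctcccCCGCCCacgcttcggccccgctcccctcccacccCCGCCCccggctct
Wnt11: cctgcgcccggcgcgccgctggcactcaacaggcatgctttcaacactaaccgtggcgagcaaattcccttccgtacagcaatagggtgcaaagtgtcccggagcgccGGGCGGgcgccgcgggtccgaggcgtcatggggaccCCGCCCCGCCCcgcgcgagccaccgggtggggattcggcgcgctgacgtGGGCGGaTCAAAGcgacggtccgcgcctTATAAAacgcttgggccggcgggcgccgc
Fzd7: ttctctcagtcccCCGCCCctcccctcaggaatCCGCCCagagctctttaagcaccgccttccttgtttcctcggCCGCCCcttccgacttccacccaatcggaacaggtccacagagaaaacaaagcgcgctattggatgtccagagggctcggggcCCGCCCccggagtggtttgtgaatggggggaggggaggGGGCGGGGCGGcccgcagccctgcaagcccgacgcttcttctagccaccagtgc
Fzd10: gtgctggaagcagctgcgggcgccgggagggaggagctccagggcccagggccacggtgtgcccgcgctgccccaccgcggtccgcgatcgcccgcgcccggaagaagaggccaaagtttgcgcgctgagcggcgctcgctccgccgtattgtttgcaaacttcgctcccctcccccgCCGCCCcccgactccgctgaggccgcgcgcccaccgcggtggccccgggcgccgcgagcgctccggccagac
Sfrp2: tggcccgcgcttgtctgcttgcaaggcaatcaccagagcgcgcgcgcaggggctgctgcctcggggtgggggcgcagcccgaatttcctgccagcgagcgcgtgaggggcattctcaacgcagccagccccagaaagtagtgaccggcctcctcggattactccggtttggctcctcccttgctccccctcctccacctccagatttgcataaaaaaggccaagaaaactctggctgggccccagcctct

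The Wnt6 and Fzd7 stretches held 6 GGGCGG matches each and none of the other 3 motifs. In Fzd7 the last pair of matches shares a base, and so does one pair in Wnt11. The Wnt11 stretch shown, 1 of the 2 that the table gives for this gene, held 4 GGGCGG matches, 1 CTTTGA match and 1 TATAAA match, while the other, at chr7:98838595-98838844, held none of the 4 motifs. Fzd10 held 1 GGGCGG match, and Sfrp2 held none of the 4. The Fzd10 stretch lies inside the gene as deposited, which starts at base 128600844. Of the 41 genes, 27 had a promoter in the RefSeq table, among them 7 of the 13 called genes, with 8 promoters (Wnt10a, Wnt5a, Wnt7b, Fzd2, Lrp5 and Sfrp4 had none). GGGCGG was found in 6 of these 8, beside 32.74% of 32851 promoters of the same length, CTTTGA in 2, beside 13.83%, TATAAA in 2, beside 12.37%, and GGAATG in 0, beside 12.64%. The 22 promoters of genes of the family that were not called held GGGCGG in 16, CTTTGA in 3, TATAAA in 3 and GGAATG in 0, so GGGCGG was common in both sets. The GC content of the 8 ran from 51.2% to 85.2%, beside a median of 52.4% over all promoters. A match is a run of letters and not a measured binding site.

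The ligands were led by Wnt10a and Wnt6, which both signal mainly through beta-catenin and lie next to each other on chromosome 1 (from 74771892 to 74804179 on the plus strand, with 6193 bases between them). Wnt10a was at 33.3, 31.4 and 29.8 FPKM in the control libraries and at 9.38, 8.34 and 7.40 FPKM in the cisplatin libraries. Its log2 fold change was -1.90 (SE 0.09, limma adjusted p = 5.17e-06), a level 3.76 times lower in the cisplatin mean. Wnt6 was at 27.7, 28.9 and 25.0 FPKM in control and at 4.91, 5.19 and 6.24 FPKM in cisplatin. Neither gene's groups came close to overlap, and Wnt6 fell by 2.30 on the log2 scale (SE 0.10, limma adjusted p = 3.61e-06). The 2 neighbours together made up 76.9% of the summed ligand FPKM in control and 72.0% in cisplatin.

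Wnt11 and Wnt4 came next in the control libraries. Wnt11, a ligand of the polarity branch, was at 5.87, 6.42 and 5.58 FPKM in control and at 0.583, 0.956 and 0.455 FPKM in cisplatin, and its log2 fold change of -3.04 (SE 0.24, limma adjusted p = 5.41e-05) was the largest among the tested ligands. Its exons overlap those of the pseudogene Gm8398 on the opposite strand over 8.8% of their length, and where counting is not by strand the reads there cannot be told apart. Wnt4, which takes part in the development of the female reproductive tract, was at 5.80, 5.11 and 5.10 FPKM in control and at 1.17, 1.40 and 1.42 FPKM in cisplatin. Of the 50-base runs in its exons 3.85% also occur in other genes, the highest share of the 41. Every cisplatin library of Wnt4 was below every control library, with a log2 fold change of -1.93 (SE 0.11, limma adjusted p = 1.15e-05).

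Wnt5a and Wnt7b were lower-level ligands that fell by a similar amount. Wnt5a, the best known ligand of the branch without beta-catenin, was at 1.93, 1.78 and 1.82 FPKM in control and at 0.438, 0.297 and 0.383 FPKM in cisplatin (log2 fold change -2.05, SE 0.20, limma adjusted p = 1.65e-04). Wnt7b, which signals to beta-catenin in lung and kidney epithelium, was at 1.37, 1.51 and 1.68 FPKM in control and near 0.30 FPKM in all 3 cisplatin libraries (log2 fold change -2.02, SE 0.21, limma adjusted p = 2.23e-04). The cisplatin values of Wnt7b rest on 47, 49 and 47 rebuilt reads. Wnt5a shares 4.58% of its exonic length with Gm2670, and Wnt7b 6.61% with AU022754, both on the opposite strand.

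Wnt10b and Wnt5b were the 2 tested ligands that did not pass. Wnt10b, a relative of Wnt10a that lies beside Wnt1 on chromosome 15, was at 0.930, 0.902 and 1.13 FPKM in control and at 0.890, 0.550 and 0.934 FPKM in cisplatin. Its log2 fold change was -0.31 with a 95% interval from -0.91 to 0.28 (limma adjusted p = 0.328), which does not reach the change of its relative Wnt10a. Wnt5b was at 0.540, 0.628 and 0.479 FPKM in control and at 0.314, 0.478 and 0.802 FPKM in cisplatin. Its cisplatin libraries spread over the whole control range, and its interval from -0.99 to 0.77 around -0.11 leaves a change in either direction possible (limma adjusted p = 0.823). Without the first cisplatin library the log2 fold change of Wnt5b was 0.16.

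Summed over the 19 ligands, the level was 76.2 ± 3.82 FPKM in control and 19.2 ± 0.355 FPKM in cisplatin (SD, n = 3 each), 3.97 times lower. The smaller sum was not a uniform reduction of every gene. Wnt10b made up 1.30% of the ligand sum in control and 4.11% in cisplatin, and Wnt5b 0.719% and 2.76%. Wnt11 went the other way, from 7.81% to 3.48%, and Wnt10a kept a similar share (41.3% and 43.7%). In each of these libraries Wnt10a was the ligand with the highest FPKM.

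**Figure D2:**
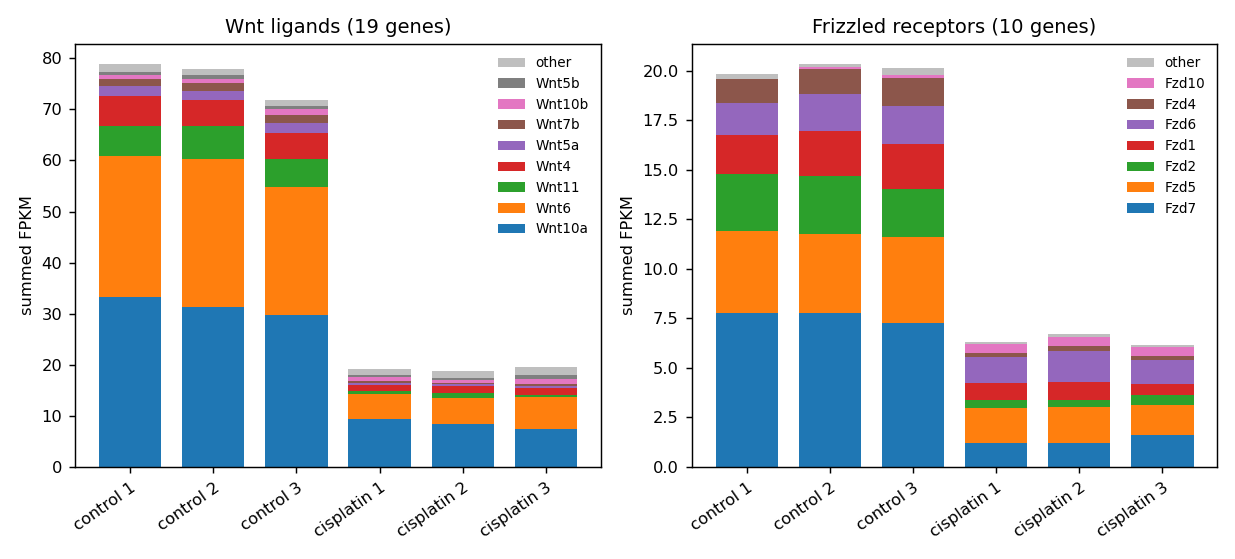
Summed FPKM of the 19 Wnt ligands (left) and the 10 Frizzled receptors (right) in each library, stacked by gene. Ligand sums are 71.9 to 78.9 FPKM in control and 18.8 to 19.5 FPKM in cisplatin, and Frizzled sums are 19.8 to 20.3 FPKM and 6.15 to 6.72 FPKM.

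Among the Frizzled receptors, the seven-pass proteins that bind Wnt at the cell surface, 5 of the 6 tested were called lower. Fzd7 had the highest level in control, at 7.78, 7.75 and 7.29 FPKM, and was at 1.21, 1.21 and 1.63 FPKM in cisplatin (log2 fold change -2.42, SE 0.13, limma adjusted p = 7.64e-06). Fzd2 was at 2.87, 2.94 and 2.41 FPKM in control and at 0.388, 0.346 and 0.472 FPKM in cisplatin. With a log2 fold change of -2.50 (SE 0.18, limma adjusted p = 3.35e-05), Fzd2 and Fzd7 moved by amounts that lie within each other's 95% intervals. Fzd4, known as the receptor of Norrin as well as of Wnt, was at 1.19, 1.23 and 1.46 FPKM in control and at 0.207, 0.278 and 0.179 FPKM in cisplatin (log2 fold change -2.12, SE 0.27, limma adjusted p = 5.62e-04).

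Fzd5 and Fzd1 fell less. Fzd5 was at 4.15, 3.99 and 4.34 FPKM in control and at 1.76, 1.83 and 1.51 FPKM in cisplatin, a log2 fold change of -1.24 (SE 0.10, limma adjusted p = 6.37e-05). The transcript Gm38058 covers 17.8% of the exonic length of Fzd5 on the opposite strand. Fzd1 was at 1.94, 2.27 and 2.27 FPKM in control and at 0.861, 0.899 and 0.581 FPKM in cisplatin, a log2 fold change of -1.38 (SE 0.19, limma adjusted p = 9.53e-04). Fzd6, a polarity receptor that can also dampen the beta-catenin branch, was at 1.62, 1.89 and 1.89 FPKM in control and at 1.34, 1.54 and 1.23 FPKM in cisplatin. The groups of Fzd6 did not overlap, but its log2 fold change of -0.37 missed the threshold (95% interval -0.70 to -0.04, limma adjusted p = 0.059).

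The sum over the 10 receptors was 20.1 ± 0.25 FPKM in control and 6.39 ± 0.298 FPKM in cisplatin (SD, n = 3 each), 3.15 times lower. The order of the receptors changed with the sum. Fzd7 made up 37.8% of Frizzled FPKM in the control mean and 21.2% in the cisplatin mean. Fzd6 went from a mean share of 8.94% to 21.4%, and Fzd5, at 20.7% and 26.6%, had the highest mean level of the family in cisplatin. Fzd10, described with the low genes below, took 0.469% in control and 7.04% in cisplatin.

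**Figure D3:**
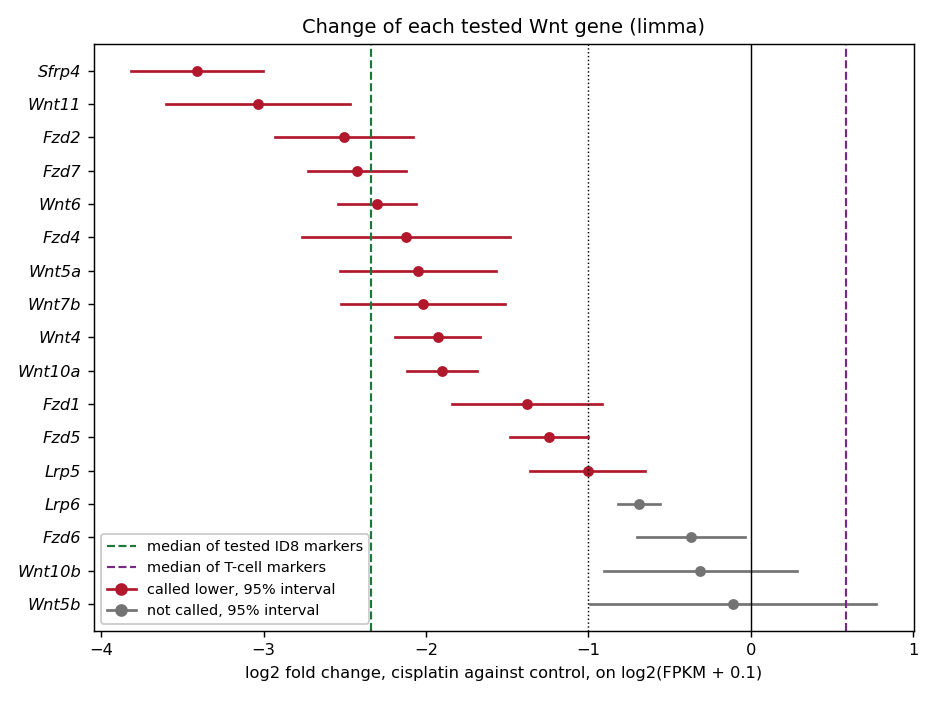
Log2 fold change (cisplatin against control) of each tested gene with its 95% interval, red where called lower. Dashed lines are the median log2 fold changes of the tested ID8 markers (-2.34) and of the T-cell markers (0.58), and the dotted line is the threshold of -1. Sfrp4 and Wnt11 lie furthest left, at -3.41 and -3.04.

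The co-receptors changed less than most Frizzled receptors. Lrp6, the one of the pair with the higher level, was at 13.9, 12.9 and 12.7 FPKM in control and at 8.22, 7.76 and 8.41 FPKM in cisplatin. Its groups lay well apart, with a log2 fold change of -0.69 (SE 0.05, limma adjusted p = 5.82e-05) that did not reach the fold threshold. Lrp5 was at 3.85, 4.13 and 2.87 FPKM in control and at 1.63, 1.76 and 1.81 FPKM in cisplatin. Its log2 fold change of -1.01 (SE 0.15, limma adjusted p = 0.0012) sat on the threshold, and it was -0.97 without the first cisplatin library, -0.95 without the first control library and -0.90 without the second control library, so that in these its call was lost. The summed level of both was 16.8 ± 1.08 FPKM in control and 9.86 ± 0.351 FPKM in cisplatin (SD, n = 3 each).

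Of the antagonists, Sfrp4 alone passed the filter on low values. Sfrp4, a secreted protein with a Frizzled-like domain that binds Wnt, was at 6.52, 5.81 and 5.90 FPKM in control and at 0.636, 0.412 and 0.421 FPKM in cisplatin. The mean was 12.4 times lower in cisplatin, and the log2 fold change of -3.41 (SE 0.17, limma adjusted p = 6.47e-06) was the largest of the 17 tested genes. The rest of the antagonists were under the filter, Dkk3 and Sfrp2 having the most reads of them. The 4 Dkk genes together came to 0.433 ± 0.0696 FPKM in control and 0.320 ± 0.118 FPKM in cisplatin, and Wif1 to 0.0724 ± 0.0333 and 0.0670 ± 0.0433 FPKM (SD, n = 3 each).

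Of the 24 genes under the filter, 5 (Frzb, Dkk1, Wnt3a, Wnt8a and Wnt9b) had 0 reads in every library. At these depths that allows up to 3 reads, a floor that covers counting error only. The other 19 are described by their rebuilt reads, since FPKM at this level stand for few fragments. In 13 of the 19 the groups overlapped, in 4 (Dkk3, Dkk2, Fzd8 and Wnt1) all cisplatin libraries were below, and in 2 (Fzd10 and Sfrp2) all were above. How often the groups lie apart among all genes under the filter was not counted, so these counts have no share to be read against. These genes carry no call from the main test.

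Fzd10, a receptor with a narrow expression pattern in adult tissue, had 3, 11 and 14 reads in the control libraries and 47, 49 and 47 in the cisplatin libraries. That is 0.0947 ± 0.057 FPKM against 0.449 ± 0.00488 FPKM (SD, n = 3 each), and the reads per library factor were 4.73 times higher in cisplatin (95% counting interval 3.14 to 7.37). When limma was run with no filter on low values, the log2 fold change of Fzd10 was 1.54 (SE 0.36, adjusted p = 0.0198). Sfrp2, an antagonist made mainly by stromal cells, had 2, 0 and 2 reads in control and 15, 25 and 33 in cisplatin. The ratio was 16.9 with a counting interval from 6.33 to 63.7, and limma with no filter gave 1.86 (SE 0.34, adjusted p = 0.00721). That fit called 756 of 33456 genes higher. An antisense transcript, Gm26771, covers 16.1% of the exonic length of Sfrp2.

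Fibroblasts are among the stromal cells in which Sfrp2 is known. Of 9 fibroblast markers, only Dcn (39.2 FPKM in control and 7.51 FPKM in cisplatin, called lower) and Col1a1 (2.23 and 1.31 FPKM) passed the filter. Lum, Pdgfrb, Pi16, Dpt and Col1a2 had higher means in cisplatin with overlapping groups, all under 0.334 FPKM, Pdgfra had a lower one, and Col3a1 was at 0 in every library. The summed level, 41.2 to 42.7 FPKM in control and 9.57 to 9.92 FPKM in cisplatin, is mostly that of Dcn. The 10 B-cell markers were all higher in cisplatin with an adjusted p under 0.05, with 1 (Ighm) past the fold threshold. Of 11 myeloid markers 9 were tested, 4 were called higher, Cd14 was lower (log2 fold change -0.47, limma adjusted p = 0.00384) and Cd68 did not pass (0.00). The myeloid sum was 72.8 to 77.2 FPKM in control and 133 to 151 FPKM in cisplatin, and Lyz2, at 30.8 and 89.7 FPKM, made up most of that difference. The part of these cells in the Fzd10 and Sfrp2 values was not tested.

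Wnt1, the founding ligand of the family, had 13, 12 and 4 reads in control and 0, 1 and 0 in cisplatin, a ratio of 31.3 with a counting interval from 5.19 to 1279. Fzd8 had 12, 9 and 19 reads in control and 0, 4 and 0 in cisplatin, 10.8 times higher in control (3.90 to 41.6). Both were called lower by limma with no filter (log2 fold change -1.13 with adjusted p = 0.0295 for Wnt1 and -1.04 with adjusted p = 0.0275 for Fzd8). That fit called 2446 of 33456 genes lower. The cisplatin means of Wnt1 and Fzd8, 0.0042 and 0.012 FPKM, are under the pseudocount of 0.1, which sets much of these fold changes. Dkk2 had 2, 6 and 4 reads in control and 0 in every cisplatin library, where 0 reads allow up to 3. Dkk3, a Dkk relative that does not bind Lrp5 or Lrp6 in the usual way, had 30, 30 and 28 reads in control and 16, 20 and 18 in cisplatin, 1.76 times higher in control (1.24 to 2.52). Its groups did not overlap, yet limma with no filter gave an adjusted p of 0.254.

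The genes with overlapping groups were the ligands Wnt2, Wnt2b, Wnt3, Wnt7a, Wnt8b, Wnt9a and Wnt16, the receptors Fzd3 and Fzd9, and the antagonists Dkk4, Sfrp1, Sfrp5 and Wif1. Wnt2b and Wnt9a had the most reads of these, at 33 to 60 and 25 to 34 in control and at 33 to 47 and 28 to 47 in cisplatin. Wnt8b, at 7, 15 and 7 reads in control and 36, 11 and 16 in cisplatin, had a ratio of 2.01 in favour of cisplatin (95% counting interval 1.28 to 3.24), and Fzd3, at 4, 10 and 5 reads and 4, 25 and 8, one of 1.80 (1.01 to 3.32). In both the high total came largely from 1 cisplatin library, and these intervals leave out the spread between libraries. For the other 11 the counting interval of the ratio included 1.

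**Figure D4:**
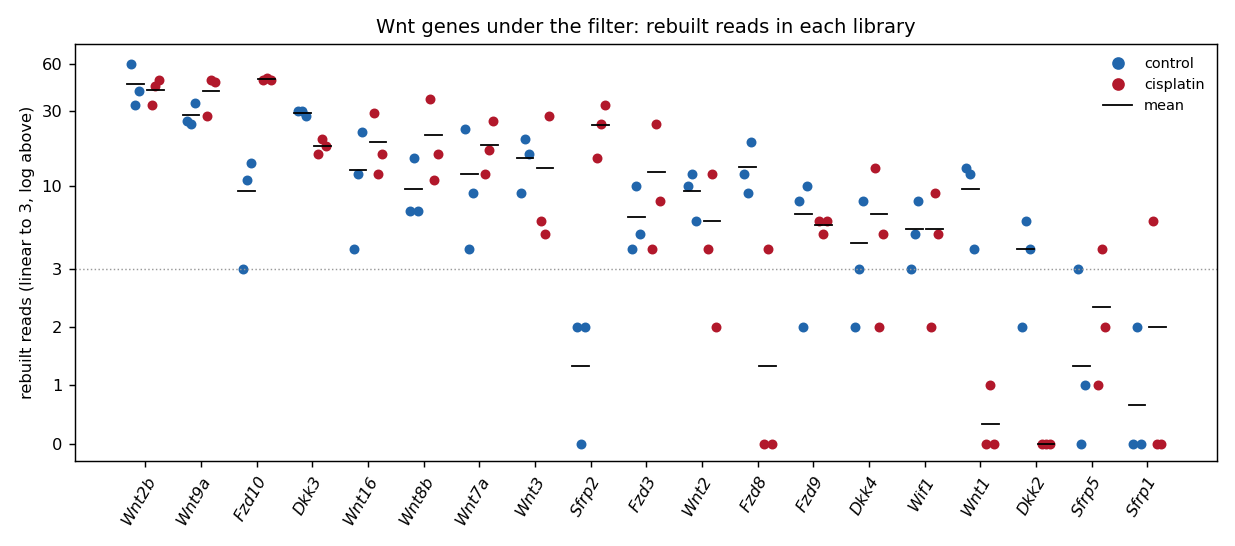
Rebuilt reads in each library for the 19 genes under the filter that had any read, on an axis linear to 3 and logarithmic above. The dotted line is 3 reads. Fzd10 and Sfrp2 have every cisplatin point above the control points, and Dkk3, Fzd8, Wnt1 and Dkk2 every one below.

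The genes that make a Wnt protein ready for release fell with the ligands. Porcn, the enzyme that adds the lipid without which Wnt proteins are not secreted, was at 5.94, 6.26 and 5.58 FPKM in control and at 0.103, 0.141 and 0.103 FPKM in cisplatin. The 51.3-fold lower mean gave a log2 fold change of -4.81 (SE 0.16, limma adjusted p = 1.24e-06). Wls, which carries lipid-bound Wnt to the cell surface, was at 11.5, 10.9 and 10.6 FPKM in control and at 5.09, 4.49 and 4.95 FPKM in cisplatin (log2 fold change -1.17, SE 0.06, limma adjusted p = 1.05e-05). The groups of both were far apart. Porcn, under 0.5 FPKM in the cisplatin mean, entered the test through the control group.

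Over 54 tested genes of 7 lists of other Wnt pathway genes, 11 were called lower and 0 higher. The shares over all tested genes were the 12.8% and 4.11% given above. When libraries were centred on the T-cell markers, 25 of the 54 were called lower, beside 3727 of all 15874 tested genes. Without the centring, 27 of the 54 were lower and 11 higher with an adjusted p under 0.05 at any fold, beside 29% and 27.5% of all tested genes. Among the surface proteins of these lists, 5 of 7 tested receptors were called lower and 0 higher, with a median log2 fold change of -1.70. Adgra2, which helps Wnt7 proteins to signal, was at 12.4 FPKM in control and 0.560 FPKM in cisplatin (log2 fold change -4.25). The tyrosine kinase-like receptors Ptk7 and Ryk changed by -1.70 and -1.37, the glypican Gpc4 by -1.76 and the polarity protein Vangl1 by -2.09 on the same scale, while Reck and Vangl2 did not pass. Vangl2, at 0.494 FPKM in the control mean, entered the test through the cisplatin group. Of the R-spondins and their receptors 3 were tested, and Lgr4, a receptor for R-spondin, was called lower at 14.6 FPKM in control and 1.72 FPKM in cisplatin (log2 fold change -3.02). Of 5 other extracellular antagonists tested, 0 were called, 3 passed the p threshold alone with lower values, and the median log2 fold change was -0.49. Under the centring on the T-cell markers, 3 of these 5 were called lower.

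Of 22 intracellular transducers tested in limma, 0 were called in either direction. After centring on the T-cell markers 7 were called lower, as were 3727 of all 15874 tested genes. Without the centring, 9 had a lower and 5 a higher level with an adjusted p under 0.05, and the median log2 fold change was -0.05. Beta-catenin itself, Ctnnb1, was at 83.6 ± 1.83 FPKM in control and 61.0 ± 1.44 FPKM in cisplatin (SD, n = 3 each; log2 fold change -0.45, limma adjusted p = 3.17e-05), and its log2 fold change was -1.03 (adjusted p = 1.51e-06) under that centring. Of 13 nuclear factors tested, 3 were called lower, Tcf7l1 (-1.88), Tcf7l2 (-1.88) and the beta-catenin cofactor Bcl9l (-1.12), and 0 higher, and 6 were called lower under the centring. Tcf7l2 entered the test through the control group.

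The Tcf and Lef factors typical of T cells moved the other way from Tcf7l1 and Tcf7l2. Tcf7 was at 316, 313 and 323 FPKM in control and at 499, 494 and 512 FPKM in cisplatin (log2 fold change 0.66, SE 0.03, limma adjusted p = 4.6e-06). Lef1 was at 23.3, 23.9 and 22.9 FPKM in control and at 35.3, 35.1 and 37.3 FPKM in cisplatin (log2 fold change 0.62, SE 0.04, limma adjusted p = 1.57e-05). Both stayed under the fold threshold, and their change was close to the median of 0.58 over the T-cell markers. Axin2, a feedback inhibitor read as a target of beta-catenin, was at 2.11, 2.25 and 2.20 FPKM in control and at 3.06, 3.12 and 3.06 FPKM in cisplatin (log2 fold change 0.48, SE 0.08, limma adjusted p = 0.002). With quantile normalization, TPM and voom the log2 fold change of Axin2 was 0.67, 0.47 and 0.58. When libraries were centred on the T-cell markers it was -0.10 (SE 0.08, limma adjusted p = 0.316), which cannot be told from no change. After that centring Lef1 was at 0.05 (adjusted p = 0.36) and Tcf7 at 0.09 (adjusted p = 0.0434). Of 7 tested feedback and target genes, 0 were called, 4 had higher levels and 1, Ccnd1, a lower level with an adjusted p under 0.05. Under the centring 1 of the 7 was called lower.

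**Figure D5:**
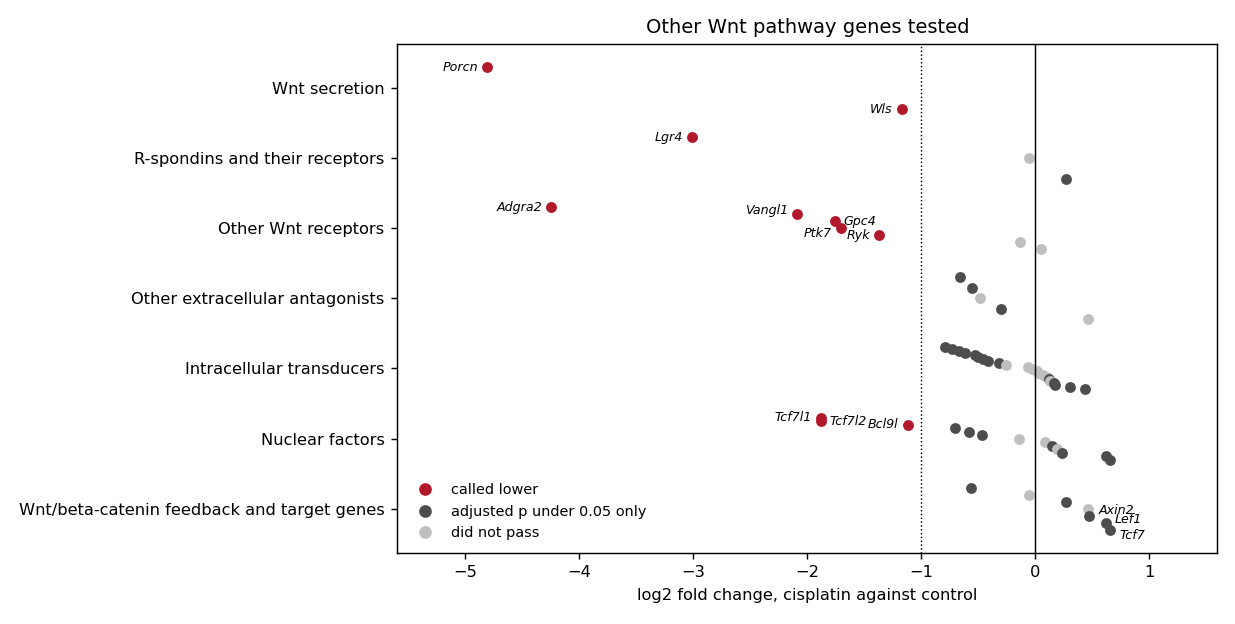
Log2 fold change (cisplatin against control) of the tested genes of 7 lists of other Wnt pathway genes, with each point a gene. Genes called lower are in red and named, and the dotted line is the threshold of -1. The called genes lie in the rows of secretion, receptors and nuclear factors, while the transducers and target genes lie within 1 of 0 without centring on the T-cell markers.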

How the data were processed

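The authors deposited FPKM values for 54532 genes in 6 libraries, made from counts divided by gene length and a library factor, and 0 further columns of samples. According to the study's methods, reads were cleaned, aligned and counted with LifeScope, whereas the submitters' processing notes name fastp, HISAT2 2.0.5, featureCounts 1.5.0-p3 and mm10. Strand and the treatment of multi-mapping reads are not given in the sources used here. Coordinates are those of the deposited table (GRCm38), the same as in GENCODE M21 for 40 of the 41 genes. Groups came from the sample titles.

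From the FPKM, whole reads were rebuilt as FPKM times gene length over the step of each library. Of the values, 100% came out whole within 0.1. Genes averaging 0.5 FPKM or more over the libraries were tested in limma 3.58.1 (R 4.3.3) on log2(FPKM + 0.1) with lmFit and eBayes (trend), with Benjamini-Hochberg adjustment. A fold change on that scale understates the change of low genes. Counting intervals (95%) are exact binomial and cover counting error only. The steps were tested on simulated data. No 2 replicates held identical values, and they differed beyond sampling noise (chi-square per degree of freedom 5.11 to 5.99). Between any 2 of the 41 genes, 0 shared a run of 50 bases of exon sequence.

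The genes, lists and tests were chosen with earlier results of these data known. Every one of the 41 genes may be named. Genes of the pathway lists were named where called, with Axin2, Lef1, Tcf7, Ctnnb1, Porcn and Wls in any case, and the highest gene of each marker list. Named outside this rule, after their values were seen, were Thbs1, Reck, Vangl2 and Ccnd1. So were the fibroblast markers Col1a1, Col1a2, Col3a1, Lum, Pdgfra, Pdgfrb, Pi16 and Dpt, and the myeloid markers Cd14 and Cd68. Promoters came from RefSeq (GRCm38.p6). The alternatives were other pseudocounts, filters and scalings, TPM, no variance trend, voom on the rebuilt reads, protein-coding genes alone, other thresholds, a replicate block and leaving out each library. Python 3.11.15, pandas 2.3.3, numpy 2.4.6 and matplotlib 3.10.9 were used.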

Additional observations from a re-analysis of the deposited data

How the results depend on the processing

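Of 301 values of the 17 tested genes under 18 alternatives, 300 had the direction first reported and 289 also the same side of the threshold. The count called lower was 13 of 17 and became 8 with a pseudocount of 1, where Fzd5, Lrp5, Fzd1, Wnt7b and Fzd4 lost their call at -0.93, -0.75, -0.83, -0.95 and -0.91, a pseudocount that shrinks low values by construction. Over all 15874 tested genes, that pseudocount called 1451 lower. The count over the 17 was 12 to 13 when each library was left out in turn. Lrp5 also lost its call with quantile normalization (-0.81) and voom (-0.96). Wnt5b, at -0.11, ran from -0.19 to 0.16 over 5 of the leave-one-out fits (it was under the filter without cisplatin replicate 3), and reversed without cisplatin replicate 1 (0.16, adjusted p = 0.727). The count called higher, 0, became 2 with no filter (36 genes tested), 2 with TPM (23 tested) and 2 with voom on rebuilt reads (27 tested). Over all genes, 756, 785 and 1127 were called higher in the same order, beside 653 of 15874 at first. The fit with no filter tested 33456 genes. How many genes were tested with TPM and with voom was not counted, so those 2 settings have no share to be read against. These settings test genes that the filter had removed. Centring on the T-cell markers moved the median of all genes to -0.54 and quantile normalization to 0.16. Lrp6 then reached -1.26 under the centring, or about the same distance from the shifted median as before, and 25 instead of 11 other pathway genes of 54 were called lower. The split of all calls was 2034 lower and 653 higher at first, 3727 and 141 under that centring, and 1789 and 255 over protein-coding genes alone. Same-numbered libraries did not deviate together (correlations 0.02, -0.06 and -0.02). The values thus show no pairing by number, but so few libraries cannot exclude one. The fit with the replicate block also called 13 lower. Depth limits the 19 genes under the filter, whose single libraries held 60 reads or fewer.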
